A study of Mus musculus with 8 samples.

Results

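The genes described here are Gpam, Agpat1, Agpat2, Agpat3, Lpin1, Lpin2, Dgat1 and Dgat2, 8 enzymes that build triglyceride and other glycerolipids. They were taken by name from the 54091 rows of the expression table, all 8 were present, and all 8 passed the filter on low values (an average of 10 or more normalized counts per library, which leaves 15657 genes).

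Triglyceride is built in steps on a backbone of glycerol-3-phosphate. A glycerol-3-phosphate acyltransferase (GPAT) adds the first fatty acid, an acylglycerophosphate acyltransferase (AGPAT) adds the next and makes phosphatidate, a lipin removes the phosphate to leave diacylglycerol, and a diacylglycerol acyltransferase (DGAT) adds the last fatty acid. Phosphatidate and diacylglycerol are also the starting points of phospholipids, and each fatty acid enters as acyl-CoA, the substrate that Acot2 hydrolyses in mitochondria.

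RNA came from white quadriceps, a pale thigh muscle made mostly of fast fibres. The mice were male, 11 to 14 weeks old, and were kept for 7 days on a diet of 60% fat. Controls (4 libraries, replicates 1 to 4) are labelled Loxp/Loxp, and their label names no Cre. Knockouts (4 libraries, replicates 5 to 8) are labelled CKM Cre with a knockout of Acot2 in muscle. CKM is the muscle creatine kinase gene, whose promoter is active in skeletal and heart muscle fibres, so other cells of the tissue would keep Acot2. By the labels Cre was present in the knockout mice alone, so its own effects and those of Acot2 loss cannot be told apart. Whether every library is its own animal is not stated, so the p-values speak only of the spread among libraries, which may be technical.

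Acot2 had a normalized count of 2166.2 to 4165.4 in controls and 256.4 to 354 in knockouts, or 10.6% of the control level on the log2 scale (limma, adjusted p = 4.72e-06), which matches the labels. Recovered depth was 55283973 to 109101319 reads per library. It was highest in control replicates 4 (109101319) and 3 (85095800), and at most 74996051 in the others. The part of depth in the values below was not tested. Control replicates 3 and 4 stood apart, at -55.2 and -56.1 along the leading principal component (34.5% of variance) against -0.6 to 38.6 for the other 6 libraries. In 22.3% of all genes tested both of these libraries lay above the other 6. Summed fast fibre markers were 8906901.4 to 11241723 and slow fibre markers 17165.5 to 95175.4, so fast fibre transcripts prevailed in every library. Slow fibre sums were highest in control replicate 3 (95175.4) and knockout replicate 6 (80416.7) within their groups, and lowest in control replicate 4 (17165.5). Gpam and Agpat3 were also highest in control replicate 3 and knockout replicate 6 within their groups, as seen afterwards. No other member had both peaks, and how many of all genes have them was not counted. Heart markers summed to 11872.4 in knockout replicate 8 and to 850.5 to 1494.8 in the other libraries. Liver markers summed to 789.2 in knockout replicate 5, to 365.1 in control replicate 1 and to 9.5 to 28.1 in the other libraries. Endothelial markers summed to 20618.2 to 25822.7 in controls and 19962.3 to 23687.1 in knockouts. In the same order, macrophage markers summed to 8428.9 to 12414.6 and 12566 to 19939.8. Fibro-adipogenic progenitor markers summed to 116821.9 to 159130.9 and 157072.3 to 187461.5. Macrophage sums did not overlap between groups, by a narrow margin (12414.6 against 12566). Among the macrophage markers only C1qa and Adgre1 were higher in every knockout than in every control, as were 6.06% of all genes tested. The part of any of these cell types or tissues in the values below was not tested.

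The upstream sequences of 3 members are shown because these genes stand for the patterns described below: Gpam and Lpin1 were highest in control replicates 3 and 4, and Agpat2 was highest in control replicate 2 and knockout replicate 5 within their groups. Each is the 250 bases before a RefSeq transcription start that is also the GENCODE start of the gene (GRCm38.p6, minus strand, 5′ to 3′). They lie at chr19:55127239-55127488 for Gpam, chr12:16610967-16611216 for Lpin1 and chr2:26604418-26604667 for Agpat2. Which start the muscle used was not measured. Capitals mark matches on either strand to 5 motifs. CCAAT is the binding core of NF-Y. The core of the sterol regulatory element of the LDL receptor gene was searched as CACCCCAC. The E-box was searched as CACGTG, and the GC box of Sp factors as GGGCGG. The half-site of many nuclear receptors was searched as AGGTCA.
Gpam: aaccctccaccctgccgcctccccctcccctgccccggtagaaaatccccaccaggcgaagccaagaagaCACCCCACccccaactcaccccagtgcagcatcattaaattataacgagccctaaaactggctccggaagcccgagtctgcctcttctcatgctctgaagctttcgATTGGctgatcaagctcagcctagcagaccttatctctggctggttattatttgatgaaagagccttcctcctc
Lpin1: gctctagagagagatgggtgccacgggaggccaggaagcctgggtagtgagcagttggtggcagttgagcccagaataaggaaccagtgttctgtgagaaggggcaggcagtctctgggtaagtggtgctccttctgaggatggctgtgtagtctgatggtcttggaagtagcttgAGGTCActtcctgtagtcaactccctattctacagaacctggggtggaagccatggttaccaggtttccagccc
Agpat2: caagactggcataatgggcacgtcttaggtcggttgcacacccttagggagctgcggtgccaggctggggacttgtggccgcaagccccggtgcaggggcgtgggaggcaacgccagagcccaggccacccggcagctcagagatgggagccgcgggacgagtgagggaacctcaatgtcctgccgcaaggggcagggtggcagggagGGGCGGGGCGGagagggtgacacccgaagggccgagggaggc

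The Gpam window shown holds a CACCCCAC that begins 180 bases before the start and a CCAAT on the opposite strand that begins 74 bases before it. Another RefSeq start of Gpam (window chr19:55099478-55099727), not the GENCODE start, has neither motif but has an AGGTCA and a GC box. Of 32851 RefSeq windows of the same length, 2.6% hold CACCCCAC and 33.8% hold CCAAT, counting both strands. The Lpin1 window holds an AGGTCA 74 bases before the start, a motif found in 14% of windows. The Agpat2 window holds a pair of GC boxes, 42 and 37 bases before the start, which overlap by a base, and 32.7% of windows hold a GC box. The E-box, which is in 6% of windows, is in none of the 3 windows shown. Of the 8 members, 6 matched a RefSeq promoter entry. A match is a run of letters and no evidence that a factor was bound.

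None of the 8 enzymes passed the threshold of adjusted p 0.05 between knockout and control (limma, 0 higher and 0 lower; 0 also by voom on recovered reads). Among all genes tested 0.00639% passed, which is Acot2 alone. The 2 enzymes with the clearest differences were both lower in knockouts, Gpam of the entry step and Lpin1 of the phosphatase step. Both had an unadjusted p under 0.05 by limma and by voom, where 13.3% of all genes tested were lower at that level. Both also had an adjusted p under 0.1, which 12% of all genes reached in either direction and 6.04% as lower genes. Of the 8 estimates 5 were lower and 3 higher, with a median log2 difference of -0.08 against 0.003 for all genes.

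**Figure D1:**
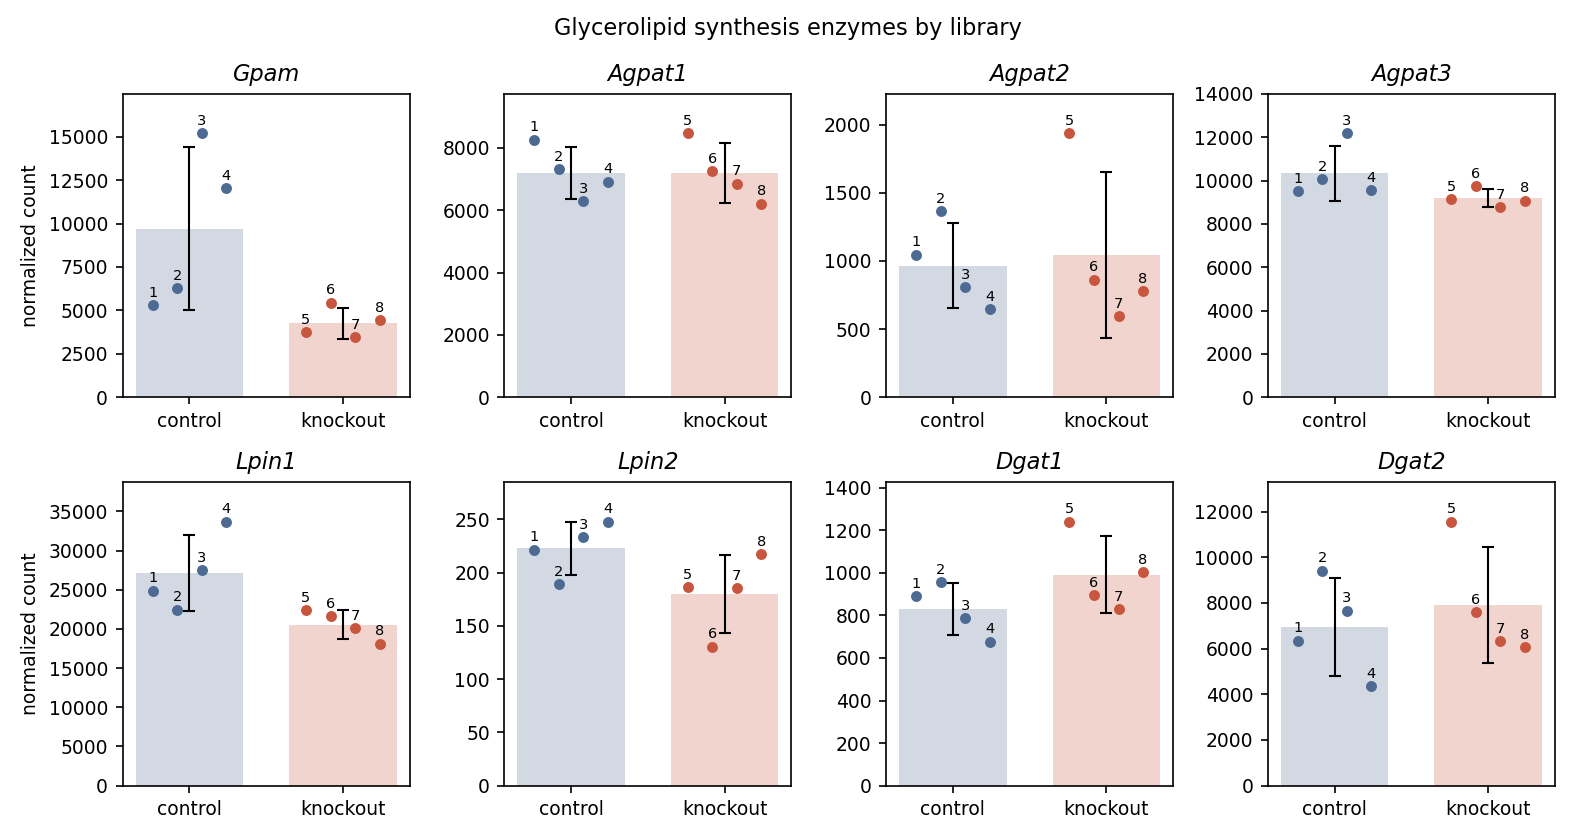
Normalized count (linear axis) of each enzyme in the 4 control and 4 knockout libraries. Points are libraries, numbered by replicate, bars are group means and error bars are SD. Gpam is highest in control replicates 3 and 4 (15209.7 and 12040.3), and Agpat2, Dgat1 and Dgat2 are highest in knockout replicate 5.

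Gpam codes for the GPAT of the outer mitochondrial membrane, which directs acyl-CoA into glycerolipids rather than into oxidation. Normalized counts below are reads divided by a size factor for each library, not by length. The gene is on chromosome 19 at 55067268 to 55127238 (GRCm38, minus strand), with 6664 bases of merged exon that overlap no exon of another annotated gene. In controls 1 to 4 the values were 5306.8, 6285.8, 15209.7 and 12040.3, against 3727, 5447.7, 3457.2 and 4437.6 in knockouts 5 to 8. Control replicates 3 and 4 were far above the other 6 libraries, and the groups overlapped only between control replicate 1 and knockout replicate 6. The means were 9711 ± 4718 and 4267 ± 889 (SD, n = 4 each). Knockouts were at 47.5% of the control level, a log2 difference of -1.07 with a 95% interval of -1.78 to -0.37 (limma, adjusted p = 0.0861). By permutation, exact and two-sided, p was 0.0571 (n = 4 each). A log2 difference of -1 or lower was found in 2.36% of all genes tested.

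The size of the Gpam difference rested on control replicates 3 and 4. Without both the log2 difference was -0.46 (limma, adjusted p = 0.606), and without control replicate 1 it was -1.32 and passed (adjusted p = 0.0337), as did 5.46% of all genes in that fit as lower. All 4 knockout values lay below control replicate 2, and 3 of them lay below control replicate 1. Within the controls the log2 values had an SD of 0.73, above 98.7% of genes averaging 100 or more, and within the knockouts an SD of 0.29, above 82.6%. The smallest number of Gpam reads in a library was 3317, so counting error was at most 1.74%, far under this spread.

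The other GPATs tested had higher, not lower, estimates. Gpat4 (named Agpat6 in the table), a GPAT of the endoplasmic reticulum, had values of 4498.7 to 5489.4 in controls and 5134.9 to 7212.1 in knockouts (log2 difference 0.25, limma, adjusted p = 0.228). Gpat3 (named Agpat9), the other form of the endoplasmic reticulum, differed by 0.33 (limma, adjusted p = 0.24), and of its exon bases 30% also lie in an exon on the opposite strand and 7.4% in one on the same strand. Gpat2 was too low to test.

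Because Gpam and Gpat4 leaned in opposite directions, their ratio within a library separated the groups. The log2 ratio of Gpat4 to Gpam was 0.05, -0.31, -1.66 and -1.42 in controls 1 to 4, against 0.46, 0.4, 0.58 and 0.49 in knockouts 5 to 8. The 4 knockouts lay within a narrow band above every control. The difference of means was 1.32 (exact two-sided permutation p = 0.0286, the smallest that 4 against 4 allow). Adjusted over the 4 ratios examined (Benjamini-Hochberg), the permutation p was 0.114 and did not pass 0.05. The other 3 ratios had an unadjusted permutation p of 0.771 or more. Without control replicates 3 and 4 the difference was 0.61, with the knockouts still above both remaining controls. Per length of exon, Gpam made up 60.8% ± 13.3 of GPAT transcripts in controls and 38.8% ± 1.6 in knockouts (SD, n = 4 each), and Gpat4 34.9% ± 12.1 and 54.1% ± 0.8.

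**Figure D2:**
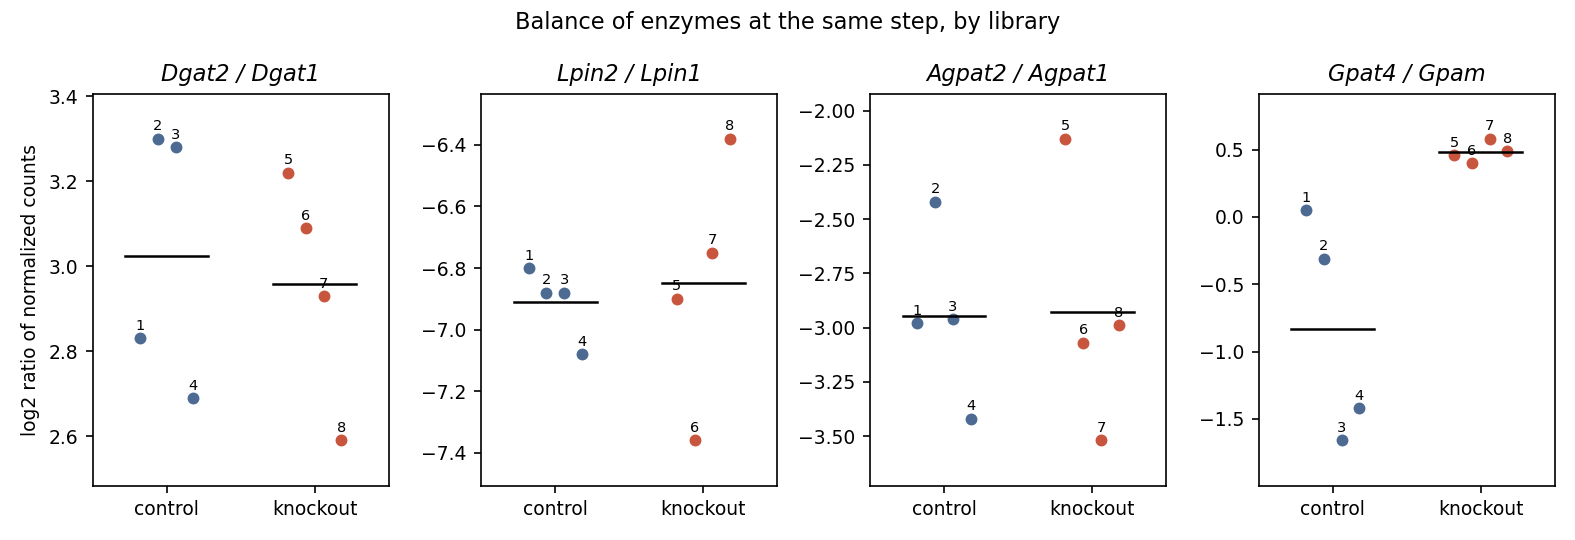
Log2 ratio of normalized counts of 2 enzymes at the same step, by library (points, numbered by replicate; lines are group means). The Gpat4 to Gpam ratio is 0.4 to 0.58 in the knockouts and at most 0.05 in the controls, and the other 3 ratios overlap between groups.

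None of the 3 AGPATs among the members differed beyond the spread between libraries. Agpat1, the widely expressed enzyme of the endoplasmic reticulum, is on chromosome 17 at 34604262 to 34613449 (plus strand), and 3.4% of its exon bases also lie in Egfl8 on the opposite strand. Controls 1 to 4 gave normalized counts of 8261.7, 7325.5, 6280.5 and 6918.7, and knockouts 5 to 8 gave 8475.2, 7257.2, 6847.6 and 6206.5. The means of both groups were 7197, and the log2 difference was -0.002 with a 95% interval of -0.27 to 0.26 (limma, adjusted p = 0.994). In fold terms the interval runs from 0.831 to 1.2.

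Agpat3, an acyltransferase of the endoplasmic reticulum and Golgi, is on chromosome 10 at 78269178 to 78352489 (minus strand). It was the steadiest of the 8 among knockouts, at 9136, 9750.4, 8765.6 and 9068.5 (log2 SD 0.06, above only 7.2% of genes averaging 100 or more). In control replicates 1 to 4 it was 9522.7, 10051.7, 12189.8 and 9564.3. Control replicate 3 was the highest library, and the groups overlapped through knockout replicate 6. The log2 difference was -0.16 with a 95% interval of -0.40 to 0.07 (limma, adjusted p = 0.344).

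Agpat2, the form abundant in fat tissue, whose loss in people causes a congenital lipodystrophy, is on chromosome 2 at 26593057 to 26604417 (minus strand), with 3% of its exon bases shared with Egfl7 on the opposite strand. In controls 1 to 4 the values were 1045.7, 1364.4, 807.2 and 643.5, against 1938.1, 861.5, 594.1 and 778.9 in knockouts 5 to 8. Knockout replicate 5 was the highest of all libraries and knockout replicate 7 the lowest, a span of 3.26-fold inside 1 group. Means were 965.2 ± 313.2 and 1043 ± 607 (SD, n = 4 each), with a log2 difference of 0.02 and a 95% interval of -0.75 to 0.78 (limma, adjusted p = 0.985). The sign turned in 8 of 21 alternatives, among them without knockout replicate 5 (-0.33) and without control replicates 3 and 4 (-0.35). Its knockout SD on the log2 scale, 0.73, was above that of 99.1% of genes averaging 100 or more.

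Per length, Agpat1 made up 53% ± 3.8 of the transcripts of Agpat1 to Agpat5 in controls and 53% ± 2.3 in knockouts (SD, n = 4 each). Agpat3 made up 29.5% ± 4.7 and 26.3% ± 2.8, and Agpat2 9.9% ± 2.7 and 10.4% ± 4.6. The log2 ratio of Agpat2 to Agpat1 differed by 0.02 between groups (exact two-sided permutation p = 1).

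Lpin1 codes for the main phosphatidate phosphatase of muscle, which can also act in the nucleus with the coactivator PGC-1α. It is on chromosome 12 at 16535669 to 16610966 (minus strand), with 9665 bases of merged exon. Controls 1 to 4 gave normalized counts of 24868.7, 22442.3, 27482.9 and 33688.2, and knockouts 5 to 8 gave 22383.3, 21584.9, 20076.6 and 18124.1. Every knockout lay below every control, although control replicate 2 exceeded knockout replicate 5 by very little. Lpin1 was the only member whose groups did not overlap. Among all genes tested, 7.06% lay lower with no overlap. The means were 27121 ± 4838 and 20542 ± 1874 (SD, n = 4 each). Knockouts were at 76.4% of the control level, a log2 difference of -0.39 with a 95% interval of -0.67 to -0.10 (limma, adjusted p = 0.0977). By permutation, exact and two-sided, p was 0.0286 (n = 4 each, the smallest possible here).

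Lpin1 was also highest in control replicates 4 and 3. Without both the log2 difference was -0.21 (limma, adjusted p = 0.664), and without control replicate 2 it was -0.47 and passed (adjusted p = 0.0372), as did 6.54% of all genes in that fit as lower. Without knockout replicate 8, which held heart transcripts and had the lowest Lpin1 value, it was -0.33. Between 14846 and 49626 Lpin1 reads were recovered per library, so counting error was at most 0.82%.

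Lpin2, a lipin found mainly in liver, is on chromosome 17 at 71182560 to 71249817 (plus strand). In controls 1 to 4 the values were 221.6, 188.9, 232.9 and 247.8, against 186.2, 130.3, 185.5 and 217.3 in knockouts 5 to 8. Control replicates 4 and 3 were again the highest, and knockout replicate 6 the lowest, with 101 reads and a counting error of 9.95%. The log2 difference was -0.32 with a 95% interval of -0.75 to 0.10 (limma, adjusted p = 0.302). Lpin3, the remaining lipin, differed by -0.18 (limma, adjusted p = 0.608). Per length Lpin1 made up 97.5% ± 0.3 of lipin transcripts in controls and 97.2% ± 0.6 in knockouts (SD, n = 4 each), and Lpin2 0.64% ± 0.05 and 0.68% ± 0.19. The log2 ratio of Lpin2 to Lpin1 differed by 0.06 between groups (exact two-sided permutation p = 0.771).

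Both DGATs had slightly higher estimates in knockouts, within the spread of the libraries. Dgat1, a membrane-bound acyltransferase that handles fatty acids from outside the cell and from lipolysis, is on chromosome 15 at 76502015 to 76511953 (minus strand). Controls 1 to 4 gave normalized counts of 891.7, 955.5, 788.2 and 676.8, and knockouts 5 to 8 gave 1241, 893.8, 828.6 and 1004.7. Knockout replicates 5 and 8 lay above every control and the other 2 within the control range. The log2 difference was 0.26 with a 95% interval of -0.07 to 0.58 (limma, adjusted p = 0.295), and 0.09 without control replicates 3 and 4.

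Dgat2, an unrelated enzyme linked to the use of newly made fatty acids, is on chromosome 7 at 99153658 to 99182719 (minus strand). In controls 1 to 4 the values were 6346.2, 9418.3, 7656.2 and 4370.5, against 11560.2, 7602.8, 6333 and 6069.9 in knockouts 5 to 8. Knockout replicate 5 was the highest library and control replicate 4 the lowest. The log2 difference was 0.19 with a 95% interval of -0.34 to 0.72 (limma, adjusted p = 0.639), and the sign turned without knockout replicate 5 (-0.01), control replicate 4 (-0.02) or control replicates 3 and 4 together (-0.02). Per length Dgat2 made up 88.8% ± 2.1 of DGAT transcripts in controls and 88.4% ± 2.0 in knockouts (SD, n = 4 each). The log2 ratio of Dgat2 to Dgat1 differed by -0.07 (exact two-sided permutation p = 0.771).

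Levels of different enzymes were compared per kb of merged exon, as a mean over all 8 libraries. The order was Lpin1 (2466 normalized counts per kb), Dgat2 (2407), Agpat1 (2398), Agpat3 (1252), Gpam (1049), Agpat2 (471.5), Dgat1 (297.8) and Lpin2 (16.5). The group means differed in this order, a difference that was not tested. Controls ran Lpin1 (2806), Agpat1 (2398), Dgat2 (2254), Gpam (1457) and Agpat3 (1326), and knockouts Dgat2 (2560), Agpat1 (2398), Lpin1 (2125), Agpat3 (1178) and Gpam (640.4), with Agpat2, Dgat1 and Lpin2 last in both. Lpin1, Dgat2 and Agpat1 did not differ beyond their spread, since Lpin1 exceeded Dgat2 in 4 of 8 libraries and Dgat2 exceeded Agpat1 in 4 of 8. Lpin1 exceeded Agpat1 only in control replicates 3 and 4, so its first place among controls rested on these libraries. In controls Lpin1 ran from 2322 to 3485.6 per kb and Agpat1 from 2092.8 to 2753. Agpat1 exceeded Agpat3 in 8 of 8 with no overlap of the ranges. Agpat3 exceeded Gpam in 6 of 8, the exceptions being control replicates 3 and 4, and Gpam exceeded Agpat2 in 7 of 8. Agpat2 exceeded Dgat1 in 8 of 8 with overlapping ranges, and Dgat1 lay far above Lpin2 in 8 of 8.

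Lpin1, Dgat2 and Agpat1 ranked above 92.8%, 92.7% and 92.6% of all genes tested by level per kb, Dgat1 above 65.5% and Lpin2 above 17.3%. With the length of the longest annotated transcript in place of merged exons, Lpin1 exceeded Agpat1 in 8 of 8 libraries and Dgat2 in 6 of 8, the exceptions being control replicate 2 and knockout replicate 5. The means per kb were then 4859 for Lpin1, 3286 for Agpat1 and 3072 for Dgat2 in controls, and 3681, 3286 and 3489 in knockouts. The plot of levels per kb shows each library.

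**Figure D3:**
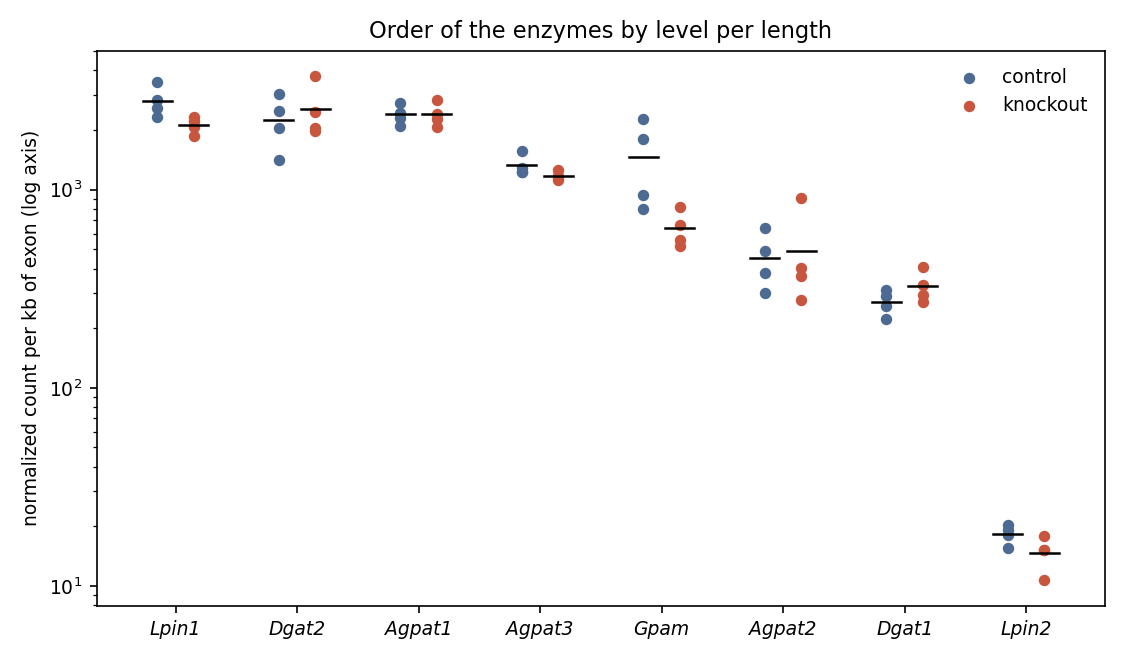
Normalized count per kb of merged exon (log axis) for each enzyme, in order of the mean over 8 libraries. Points are libraries and lines are group means. Lpin1, Dgat2 and Agpat1 overlap at the top (means 2466, 2407 and 2398), and Lpin2 lies apart at the bottom (16.5).

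Some members were highest in the same libraries, and whether they did so more than other genes was not tested. Control replicates 3 and 4 lay above the other 6 libraries in Gpam, Lpin1 and Lpin2, 3 of the 8 members, against 22.3% of all genes tested, a count chosen after the values were seen. The 4 members with the longest merged exons, Gpam, Agpat3, Lpin1 and Lpin2 (6664 to 12233 bases), all had lower estimates in knockouts. Of the 4 shorter ones (2130 to 3083 bases), 3 had higher estimates and Agpat1 was at -0.002. This split by length was made after the values were seen, and the part of length in these differences was not tested. With the trend of length and GC content removed from each library, the log2 differences were -0.94 for Gpam, -0.19 for Lpin1, -0.07 for Lpin2, -0.03 for Agpat3, -0.17 for Agpat1, -0.23 for Agpat2, 0.12 for Dgat1 and 0.06 for Dgat2. The values of Lpin1, Lpin2, Agpat3, Dgat1 and Dgat2 lay closer to 0 after that step, those of Agpat1 and Agpat2 farther from it, and that of Gpam was nearly as large.

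**Figure D4:**
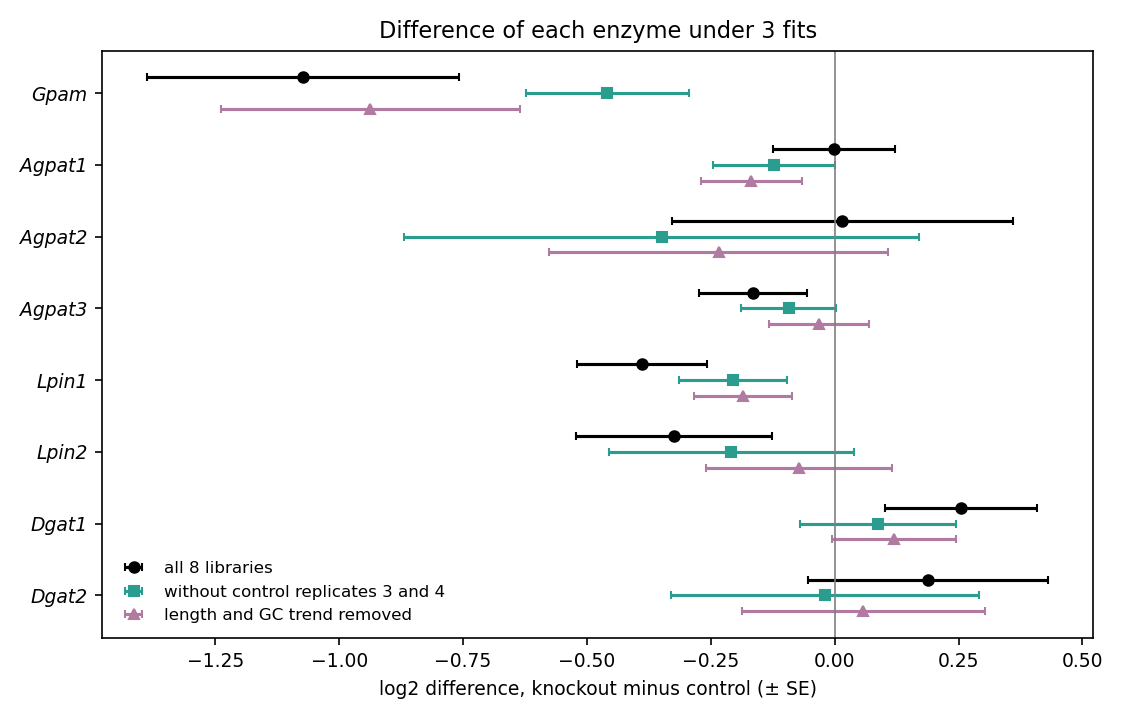
Log2 difference of each enzyme, knockout minus control, with its SE, over all 8 libraries (circles), without control replicates 3 and 4 (squares) and with the length and GC trend removed (triangles). Gpam is at -1.07, -0.46 and -0.94 in turn.

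Agpat2, Dgat1 and Dgat2 were highest in control replicate 2 among controls and in knockout replicate 5 among knockouts. So were 7 of the 10 fat cell markers, among them Adipoq (adiponectin), Plin1 and Cidec (lipid droplet proteins), a count made after the values were seen. Agpat1 and Lpin1 were also highest in knockout replicate 5 among knockouts, but in control replicates 1 and 4, respectively, among controls. The share of all genes with these peaks was not counted, so how common the pattern is cannot be told. Fabp4 and Cfd were highest in knockout replicate 8 and Adig in knockout replicate 7. Adipoq was 1191.4, 3362.9, 1359.2 and 1793.5 in controls 1 to 4, against 3843.3, 1917.8, 1233 and 1773.9 in knockouts 5 to 8. The whole adipocyte list (10 of 10 markers measured, none at 0) summed to 23835.5 to 45246.6 in controls and 32823.8 to 59526.8 in knockouts, and its highest sums were 59526.8 in knockout replicate 5 and 57990.8 in knockout replicate 8. Agpat2 was high in the former (1938.1) and low in the latter (778.9). In such whole-tissue RNA, fewer cells of a type and less RNA per cell cannot be told apart. Liver markers also had their highest sum in knockout replicate 5 (789.2). The part of fat cells or of liver transcripts in these values was not tested. Without control replicate 2 and knockout replicate 5 together, a choice made after seeing the data, the log2 difference was -0.15 for Agpat2, 0.21 for Dgat1 and 0.15 for Dgat2, and Lpin1 passed at -0.52 (limma, adjusted p = 0.0403), as did 5.77% of all genes in that fit as lower.

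**Figure D5:**
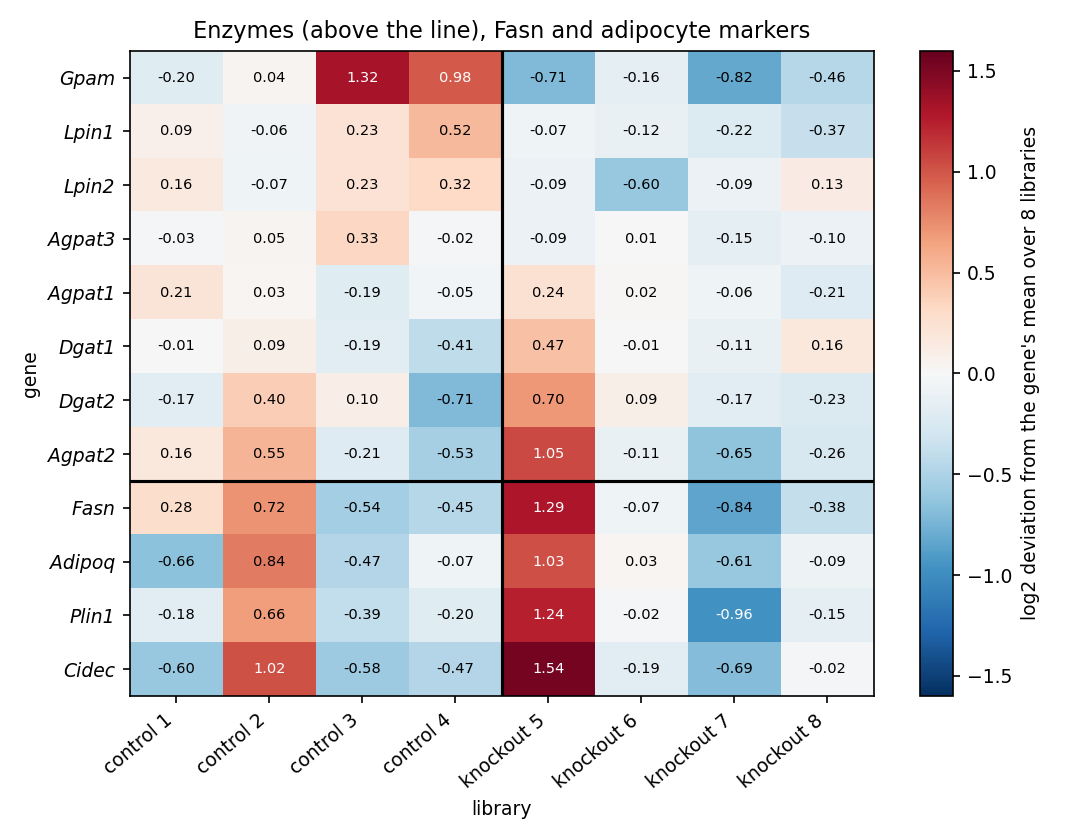
Log2 deviation of each gene from its mean over the 8 libraries, for the 8 enzymes (above the line) and for Fasn and the adipocyte markers Adipoq, Plin1 and Cidec (below). Gpam, Lpin1 and Lpin2 are highest in control replicates 3 and 4, and Agpat2, Dgat1, Dgat2, Fasn and the markers are highest in control replicate 2 and knockout replicate 5 within their groups.

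The genes closest to each member were those whose log2 values, each centred on its own mean, differed least over the 8 libraries among 11597 others (root mean square difference). For Agpat2 the closest was Fasn, the fatty acid synthase (0.183), at 4415.2, 5961.1, 2489.6 and 2646.1 in controls 1 to 4 against 8873.8, 3448.8, 2027.2 and 2781 in knockouts 5 to 8. For Gpam the closest were 3110057O12Rik (0.135) and Sacm1l, a phosphoinositide phosphatase (0.15), with log2 differences of -1.02 and -1.15. For Lpin1 they were Clip1 (0.042) and Golgb1 (0.053), a microtubule and a Golgi protein, at -0.40 and -0.39. For Dgat2 they were Gstm2 (0.170) and Inhbb (0.192), for Dgat1 Fscn2 (0.072) and Parp10 (0.076), for Agpat1 Ppp1r15a (0.052) and Ubl7 (0.060), for Agpat3 Tbcd (0.046) and Gpr137c (0.049), and for Lpin2 Smarcad1 (0.096) and Pik3r3 (0.108). The second for Agpat2 was A530016L24Rik (0.213). Among the members themselves, Agpat1 and Dgat1 were closest (0.214) and Gpam and Agpat2 farthest apart (1.01).

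The rest of glycerolipid metabolism was read from 6 lists with 64 tested of 68 genes. None passed the threshold (limma, 0 higher and 0 lower; 0 by voom). At an unadjusted p under 0.05, 9 were higher (14.1%) and 11 lower (17.2%), near the 13.6% and 13.3% of all genes tested. The median log2 difference was -0.01. The groups did not overlap in 3 of these genes as higher and in 4 as lower, where 6.06% and 7.06% of all genes tested did so.

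Among 11 other synthesis enzymes the median was 0.17, with 6 higher and 5 lower estimates. It was 0.08 without control replicates 3 and 4 and 0.31 with the length and GC trend removed, with the same numbers each way. Agpat4, a further AGPAT, had the smallest p of the list. Controls 1 to 4 gave normalized counts of 289.1, 255.2, 166.6 and 203.7, and knockouts 5 to 8 gave 370.4, 349.5, 460.7 and 560.4. Every knockout lay above every control, as in 6.06% of all genes tested. The log2 difference was 0.93 ± 0.21 (SE; limma, adjusted p = 0.0796), and 0.65 without control replicates 3 and 4. Per length Agpat4 made up 1.9% ± 0.3 of AGPAT transcripts in controls and 3.6% ± 1.1 in knockouts (SD, n = 4 each), so it stayed a minor form. Lclat1, which acylates lysocardiolipin, differed by -0.38 (limma, adjusted p = 0.106), and by -0.19 without control replicates 3 and 4. Gpd1, which makes glycerol-3-phosphate in the cytosol, had the highest level per kb of the synthesis genes (11178 over all libraries) and differed by -0.19 (limma, adjusted p = 0.33).

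Of the 6 genes around lipin and lipid droplets, all had higher estimates, with a median of 0.18 (0.05 without control replicates 3 and 4), but 4 of 6 with the length and GC trend removed (median 0.03). Bscl2 (seipin, which shapes new droplets) differed by 0.39 (limma, adjusted p = 0.155), Fitm1, a droplet-forming protein of muscle, by 0.33 (adjusted p = 0.185) and Ctdnep1, the phosphatase that acts on lipin, by 0.18 (adjusted p = 0.346). Without control replicates 3 and 4 these became 0.08, 0.04 and 0.0. Of 6 genes of triglyceride breakdown, 4 had higher estimates and the median was 0.24 (3 of 6 and 0.11 without control replicates 3 and 4; 3 of 6 and 0.06 with the length and GC trend removed). Mgll, the monoacylglycerol lipase, differed by 0.54 (limma, adjusted p = 0.0861), and G0s2, an inhibitor of the lipase Pnpla2, by 0.51 (adjusted p = 0.143). Abhd5, the activator of Pnpla2, differed by -0.53 (limma, adjusted p = 0.0796), with every knockout below every control, as in 7.06% of all genes tested. For Mgll, G0s2 and Abhd5 the values without control replicates 3 and 4 were 0.36, 0.28 and -0.32.

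On the phospholipid branch, with 18 tested genes, 10 estimates were higher and 8 lower, with a median of 0.01. Without control replicates 3 and 4, 7 were higher and 11 lower (median -0.01), and with the length and GC trend removed 13 were higher and 5 lower (median 0.10). Pcyt1a, which controls the rate of phosphatidylcholine synthesis from diacylglycerol, was 7999.6, 7324.4, 11111.5 and 12257.5 in controls 1 to 4, against 6159.8, 6956.7, 5621.9 and 5554.5 in knockouts 5 to 8. Every knockout lay below every control, as in 7.06% of all genes tested, and control replicates 3 and 4 were the highest. The log2 difference was -0.64 ± 0.16 (SE; limma, adjusted p = 0.0796), and -0.34 without control replicates 3 and 4. Cdipt, the phosphatidylinositol synthase, and Pcyt2, of phosphatidylethanolamine synthesis, differed by 0.29 and 0.30 (limma, adjusted p = 0.154 and 0.189), and by 0.10 and 0.07 without control replicates 3 and 4. In Pemt and Pisd every knockout lay above every control, as in 6.06% of all genes tested. Their log2 differences were 0.42 and 0.23 (limma, adjusted p = 0.193 and 0.279), and 0.30 and 0.18 without control replicates 3 and 4.

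Enzymes that use or remake phosphatidate beside the lipins, the diacylglycerol kinases and lipid phosphate phosphatases, had lower estimates in 10 of 11, with a median of -0.34. At an unadjusted p under 0.05 (limma), 5 were lower (45.5%) and 1 higher (9.1%), against 13.3% and 13.6% of all genes tested. The list as a set was not tested. Without control replicates 3 and 4, 7 of 11 estimates were lower, with a median of -0.20 and 1 lower at that level. With the length and GC trend removed 8 of 11 were lower. Dgkz was 2875.5, 2666.6, 3013.5 and 2802.3 in controls 1 to 4, against 2596.5, 2330.6, 2072 and 1991.1 in knockouts 5 to 8. Every Dgkz value in knockouts lay below every control, as in 7.06% of all genes tested. Its log2 difference was -0.34 ± 0.11 (SE; limma, adjusted p = 0.0903), and -0.31 without control replicates 3 and 4. Dgkq and Dgkg, both of low count, differed by -1.43 and -2.46 (limma, adjusted p = 0.0827 and 0.0907), or by -0.96 and -1.47 without control replicates 3 and 4. Dgkg was 17.9, 5.0, 36.5 and 46.8 in controls 1 to 4, against 1.0, 1.3, 3.1 and 11.0 in knockouts 5 to 8. In knockouts 5 to 7 this is 3 reads or fewer, so the size of its difference is uncertain. Of the exon bases of Dgkq, 30.8% also lie in exons on the opposite strand.

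Of 12 tested transcription factors of lipid synthesis and use, 5 estimates were higher and 7 lower, with a median of -0.07 (3 and 9, and -0.06, without control replicates 3 and 4). Ppara, a receptor for fatty acids, differed by -0.93 (limma, adjusted p = 0.121), Mlxip, a glucose-responsive factor, by -0.47 (adjusted p = 0.134) and Cebpa, a factor of fat cells, by 0.61 (adjusted p = 0.165). Without control replicates 3 and 4 these became -0.31, -0.14 and 0.20. Srebf1, which is known to drive Gpam in liver and fat, was 5557.6 to 7015.3 in controls and 5621.9 to 8318 in knockouts, and its log2 difference was 0.14 (limma, adjusted p = 0.566), or -0.02 without control replicates 3 and 4.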

How the data were processed

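RNA sequencing counts of 8 muscle libraries were analysed. The tools named per the submitters' processing notes are STAR, HTSeq, DESeq2, cutadapt and FastQC, on build GRCm38. Their settings, the annotation and the strand are not given in any source used here. The values the authors deposited are on a log2 scale, read as log2(reads divided by a size factor + 1) from the values alone. Undone and less 1, they are whole multiples of a step per library (100% of values of low and medium size within 0.1 of a whole read), so reads were recovered. A floor of 3 reads is a normalized count of 2.04 to 3.87. This floor and the counting errors given cover counting only. The 95% intervals of log2 differences come from the limma SE, which reflects the spread among libraries.

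The test, limma 3.58.1 on genes averaging 10 or more (R 4.3.3; trend, robust), used log2(normalized count + 1), which understates the change of low genes, with Benjamini-Hochberg adjustment over 15657 genes. TMM factors, written out as a scaling step, served the TMM and voom alternatives, and no count model was fitted. The main fit and the trend removal were tested on simulated data. These had the same spread for every gene and no library that stood apart, unlike the data here. Exact permutation tests used scipy 1.17.1 under Python 3.11.15. Members and lists were chosen with earlier results of these data known. Named were the members, the 3 genes of smallest p per list and the 2 closest genes per member. Other genes (Gpat2, Gpat3, Gpd1, Lpin3, Pemt, Pisd, Srebf1, Fabp4, Cfd, Adig) and the promoters shown were chosen after their values were seen. Exons, lengths and GC came from GENCODE M21 (GRCm38), promoters from RefSeq GRCm38.p6. Replicates differed by a chi-square per gene of 35.4 to 264.8 and each counted as a sample. Marker lists were adipocyte, fast and slow fibre, heart, macrophage, fibro-adipogenic progenitor, endothelial and liver.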

Additional observations from a re-analysis of the deposited data

How the results depend on the processing

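Directions and calls were recomputed under 21 alternatives, of which leaving out control replicate 2 and knockout replicate 5 together was added after seeing the data. Gpam, Lpin1, Lpin2 and Agpat3 kept lower estimates and Dgat1 higher ones in all 21, with Gpam from -1.319 to -0.429 and Lpin1 from -0.517 to -0.165. No paired analysis was possible because the groups share no replicate numbers.

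Of all genes, 1 was called lower and 0 higher. Without the filter 2 were lower, without trend and robust fitting 3 lower and 4 higher, with the length and GC trend removed 3 lower and 1 higher, with sample quality weights (whose iteration stopped early) 608 lower and 593 higher, and without control replicate 2 and knockout replicate 5 together 903 lower and 965 higher. Leaving out each library in turn gave 1 to 1024 lower and 0 to 1024 higher, the most without control replicate 2. Of the members, 0 to 1 were then called lower, and 1 without control replicate 2 and knockout replicate 5 together. Of the pathway genes, 0 to 5 were then called lower and 0 to 5 higher. With weights 2 were lower and 1 higher, and without control replicate 2 and knockout replicate 5 together 4 were lower and 3 higher. The cause of these shifts was not tested.

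Leaving out each library in turn gave log2 differences of -1.319 to -0.812 for Gpam, -0.474 to -0.279 for Lpin1, -0.084 to 0.067 for Agpat1, -0.334 to 0.234 for Agpat2 and -0.015 to 0.354 for Dgat2. They were 0.142 (without knockout replicate 5) to 0.336 for Dgat1, -0.423 to -0.178 (without knockout replicate 6) for Lpin2 and -0.201 to -0.082 (without control replicate 3) for Agpat3. Agpat2 was also reversed with weights (-0.117), with the trend removed (-0.234), without control replicates 3 and 4 (-0.349, and -0.432 with the trend removed as well) and without control replicate 2 and knockout replicate 5 together (-0.149). Dgat2 was reversed without control replicates 3 and 4 (-0.02, and -0.057 with the trend removed). The cause was not tested.

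The Gpat4 to Gpam ratio was 1.044 to 1.614 when each library was left out, at the smallest p that fewer samples allow. It was 0.614 without control replicates 3 and 4 (0.612 with the trend removed as well) and 1.502 without control replicate 2 and knockout replicate 5 together. Leaving out each library gave -0.178 to 0.055 for Dgat2 to Dgat1, -0.093 to 0.236 for Lpin2 to Lpin1 and -0.25 to 0.216 for Agpat2 to Agpat1. Lpin2 to Lpin1 was -0.003 without control replicates 3 and 4. Agpat2 to Agpat1 was -0.065 with the trend removed, -0.227 without control replicates 3 and 4, -0.26 with both, and -0.076 without control replicate 2 and knockout replicate 5 together. Depth limited Lpin2 most, with 101 to 365 reads per library.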
